A study of Mus musculus with 45 samples.

Results

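Gene expression in kidney was compared with that in brain of mice on the Control diet, over every gene of the deposited table, with attention to ion channels, transporters and the regulators of transcription and splicing. Kidney Control and brain Control hold 3 arrays each, 6 of the 45 arrays of the series, and 22080 genes were tested. All mice were C57BL/6 males, 7 weeks old at the start, with 8 in each diet group. Control mice ate the AIN-93 diet and were sacrificed on day 43 after a fast. Mice of the other 4 groups ate the same diet with 0.5% cholesterol (HCD), alone, with 1.0% of either of 2 Ganoderma lucidum extracts (Gl-1, and Gl-2 from a culture given 10 mM acetylsalicylic acid), or with simvastatin at 0.03 g per 100 g (Sim). By the methods, pools A and B hold RNA of different mice of a group, and pool C is pools A and B mixed, which leaves 2 separate pools behind the 3 arrays of each group. An array reports whole tissue, so fewer cells of a type and less RNA per cell cannot be told apart.

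The kidney filters blood at the glomerulus and then moves salt, water, sugars, amino acids, acid and drugs across a series of tubule segments, each with its own carriers and channels. Neurons set their signals by voltage-gated channels, pass them on through transmitter receptors, and depend on transporters of neurons and astrocytes to clear transmitter and to hold ion gradients. Many of these proteins come from the same gene families, so the families offer a view of how both tissues draw on related genes. Cell identity is held by transcription factors, such as the Pax and Hnf4 factors of kidney epithelium and the proneural factors of brain, and by splicing factors that differ between neurons and epithelium.

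Values below are on the log2 scale of the deposited table, which the authors background corrected by RMA, quantile normalized and adjusted with ComBat, with 1 probe set per gene. They are printed in the order pool A, pool B, pool C. A log2 difference is kidney minus brain, so positive values are higher in kidney, and SE is its standard error in the limma fit. A gene was called at an absolute log2 difference over 0.7 with a Benjamini-Hochberg adjusted p of at most 0.05, and a difference was termed large at 3 or more. The table holds no detection calls, so a low value in 1 tissue cannot be told from background, and the level of 1 gene is never set against that of another.

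Within a tissue the arrays correlated at 0.9957 to 0.9967 in kidney and at 0.9846 to 0.9960 in brain, and the median SD of a gene over 3 arrays was 0.086 and 0.104. A free-text label names brain for arrays of every tissue, so tissue was taken from the titles, and defining genes stood on the side of the title: Umod and Slc34a1 in kidney, Snap25 and Syt1 in brain. Brain array C stood apart. Although pool C is described as a mix of pools A and B, brain array C lay more than 1 log2 unit outside the range of arrays A and B for 110 genes, below it for 94 and above it for 16, whereas kidney array C did so for 0 genes. Gabra6, a GABA-A subunit of cerebellar granule cells, read 10.23, 11.01 and 4.71 in brain, beside a kidney mean of 4.68. Counts of calls in a described list or family are therefore also given without brain array C where they changed. They are not given for subfamilies or for families counted together. The difference of a gene is given both ways where it moved by more than 0.3 or its call changed.

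Kidney and brain differed in 6619 genes, 30% of those tested. Of these, 3474 (15.7%) were higher in kidney and 3145 (14.2%) in brain. A large difference was found for 487 genes (2.21%) higher in kidney and 567 genes (2.57%) higher in brain. The median difference over all genes was 0.08, and the arrays of the groups overlapped in 28 of the called genes. Without brain array C there were 6610 calls, 3420 higher in kidney and 3190 in brain, and 6374 genes were called in the same direction both ways. Large differences without that array numbered 474 in kidney and 559 in brain. At the other end, 13644 genes had a 95% confidence interval of the difference within 0.7 on either side of 0, and for 1817 genes that were not called the interval reached past 0.7.

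The largest differences on the kidney side were in genes of the proximal tubule. Kap, an androgen-regulated kidney protein, read 13.49, 13.39 and 13.53 in kidney and 5.03, 4.96 and 5.04 in brain, a difference of 8.46 (SE 0.11, 352-fold, adjusted p = 1.0e-39). Mep1a, a brush border protease, differed by 8.07 and Tmem27, a partner of the amino acid carriers, by 7.81. The other genes among the 10 largest were the enzymes Ugt3a2 (8.39), Ugt3a1 (8.12), Cyp4a31 (8.11), Acsm2 (7.85), Sult1d1 (7.73) and Cyp2j5 (7.63), with Keg1 (7.86). Ugt3a1 and Ugt3a2 lay within 0.58 of each other on all 45 arrays, with a median gap of 0.08, so these near-identical genes count as 1 uncertain measurement.

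On the brain side the largest differences were in 2 small nucleolar RNA clusters of imprinted neuronal transcripts and in genes of neurons. Snord115 read 12.28, 12.49 and 12.42 in brain and 3.88, 3.57 and 3.39 in kidney, a difference of -8.78 (SE 0.15, adjusted p = 2.3e-36). Gm26230 (-8.75) lay within 0.41 of Snord115 on all 45 arrays, which makes the pair uncertain too. Snord116 differed by -7.90. Snap25, a protein of the vesicle fusion machinery, read 13.44, 13.38 and 13.30 in brain and 5.76, 5.72 and 5.62 in kidney, a difference of -7.67 (SE 0.11, 204-fold, adjusted p = 9.2e-38). Vsnl1, a neuronal calcium sensor, differed by -7.35 and the scaffold gene Cnksr2 by -6.86. Snord115 and Snap25 did not overlap between tissues on any array, and the gap between tissues was many times the spread within a tissue. LOC102637691 (-7.63) and LOC101055630 (-6.65) were also among the 10 largest.

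Transcription factors of kidney epithelium were among the clearest differences. Of 37 kidney regulators, 30 were higher in kidney, 1 in brain and 6 were not called, with 7 large differences and a median of 1.95, and without brain array C 29 were higher in kidney. Hnf4a, a nuclear receptor of the proximal tubule, read 11.78, 11.81 and 11.88 in kidney and 6.14, 6.31 and 6.05 in brain, a difference of 5.66 (SE 0.09, adjusted p = 3.2e-37). Its relative Hnf4g (2.67) was higher in kidney too. Nr1h4, the bile acid receptor, differed by 4.71, Tfcp2l1, a factor of the collecting duct, by 4.52, and Ppara, a regulator of fatty acid oxidation, by 3.25. The Pax genes of kidney development were both higher in kidney. Pax8 read 10.44, 10.56 and 10.42 against 6.42, 6.71 and 6.21, a difference of 4.03. Pax2 differed by 2.02, and by 1.67 without brain array C.

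Smaller differences in the same direction were seen for Sim1 (2.98), Mecom (2.67), Foxi1 (2.64), Osr2 (2.36), Ehf (2.28), Maf (2.28), Gata3 (2.04), Emx2 (1.96), Sim2 (1.95), Irx3 (1.91), Tbx2 (1.78), Esrrb (1.70) and Irx1 (1.55). Elf3 (1.24), Sall1 (1.06), Grhl2 (1.04), Wt1 (1.04), Emx1 (0.77) and Esrrg (0.77) followed, and Esrrg was not called without brain array C (0.53). Tfap2b and Lhx1 were both low in brain array C. Tfap2b, a distal nephron factor, read 8.98, 8.98 and 8.88 in kidney and 7.62, 7.93 and 5.43 in brain, so the difference of 1.95 was 1.17 without that array. Lhx1 read 8.32, 8.34 and 8.24 against 7.78, 8.02 and 6.14, and its difference of 0.99 dropped to 0.40 and was not called without it. Eya1, a phosphatase and coactivator of the nephron progenitor, was the gene higher in brain (-1.86). Foxc1 (0.69), Irx2 (0.50), Id1 (0.39), Bhlha15 (0.34), Six2 (0.08) and Osr1 (0.00) were not called, although Foxc1 was called without brain array C (0.71).

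The Hox genes, which pattern the body axis behind the forebrain, were grouped by their place in the cluster. Of 39 Hox genes, 27 were higher in kidney and 0 in brain, with a median of 1.11. All 27 belong to the paralogue groups 2 to 11, which hold 30 genes, and 0 of the 9 genes of groups 1, 12 and 13 were called. This cut between groups was drawn from the calls themselves, so the 0 follows from the cut. Hoxd8 read 8.42, 8.49 and 8.66 in kidney and 4.67, 4.78 and 4.73 in brain, a difference of 3.80 (SE 0.13). Hoxc10 differed by 3.08, Hoxc6 by 2.75 and Hoxa7 by 2.25. Group 8 had the highest median, 2.02, and groups 12 and 13 had medians of 0.18 and 0.19. Without brain array C, 26 of the 39 were called.

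Regulators of neurons and glia stood on the other side. Of 43 brain regulators, 32 were higher in brain, 1 in kidney (Emx1, which is on both lists) and 10 were not called, with 9 large differences and a median of -1.40, and 31 were higher in brain without brain array C. Tbr1, a factor of excitatory cortical neurons, read 9.36, 8.69 and 10.11 in brain and 4.93, 4.63 and 4.67 in kidney, a difference of -4.65 (SE 0.17, adjusted p = 3.9e-25), or -4.28 without brain array C. Myt1l, a zinc finger protein of neurons, differed by -3.71, Rorb by -3.08, Bcl11a by -3.05 and Mef2c by -3.01. The oligodendrocyte factors Olig1 (-2.96) and Olig2 (-2.93) differed to a similar extent, and Sox10, which acts with them, by -1.34. Neurod1, a granule cell factor, read 9.69, 10.45 and 6.84 in brain against 4.41, 4.39 and 4.04 in kidney, so its difference of -4.71 was -5.78 without brain array C. The cerebellar Zic1 (-4.51) and Zic2 (-3.59) likewise became -5.40 and -4.20. The forebrain factors Neurod6 (-3.63) and Dlx1 (-1.18) went the other way, to -3.31 and -0.79. Brain array C was the highest of the 3 for both of these forebrain genes and the lowest for Neurod1, Zic1 and Zic2.

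Smaller differences of brain regulators were found for Sox2 (-2.38), Lhx2 (-2.37), Npas4 (-1.87), Fezf2 (-1.73), Cux2 (-1.72), Npas3 (-1.71), Myt1 (-1.54), Pou3f4 (-1.37), Neurod2 (-1.36), Nkx6-2 (-1.25) and Bcl11b (-1.01). St18 (-2.73), Pax6 (-2.08), En2 (-1.40), Nr2e1 (-1.19), Dlx5 (-0.87) and Etv1 (-0.77) were also called, and moved by more than 0.3 without brain array C, to -3.34, -2.50, -2.08, -0.88, -0.52 and -1.10; Dlx5 then missed the threshold. The 10 regulators that were not called, among them Sp8, En1, Otx1, Dlx2, Dlx6, Pou3f1, Pou3f2 and Pou3f3, had differences from -0.49 to 0.33.

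Splicing and silencing factors divided by tissue as well. Of 20, 15 were higher in brain, or 14 without brain array C, and 5 in kidney. Rbfox3, the antigen known as NeuN, read 10.99, 10.89 and 10.97 in brain and 5.87, 6.10 and 6.01 in kidney, a difference of -4.96 (SE 0.12, adjusted p = 3.4e-31). Rbfox1 (-4.58), Elavl4 (-4.47), Celf4 (-4.38), Elavl3 (-4.11) and Nova1 (-3.70) were large differences as well. Celf5 (-2.76, and -2.41 without brain array C), Elavl2 (-2.72), Srrm4 (-2.28), Rbfox2 (-2.01), Khdrbs2 (-1.59), Khdrbs3 (-1.31), Nova2 (-1.02) and Rcor2 (-0.80) differed less, and Rcor2 was not called without brain array C (-0.68). The polypyrimidine tract binding proteins went opposite ways: Ptbp1, the form of non-neuronal cells, differed by 1.58 and Ptbp2, the form of neurons, by -1.70. The epithelial splicing regulators Esrp2 (3.26) and Esrp1 (2.44) were higher in kidney. So was Rest, a repressor of neuronal genes outside neurons, which read 8.20, 8.22 and 8.32 in kidney and 6.36, 6.51 and 6.37 in brain, a difference of 1.83, together with its partner Rcor1 (0.97).

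Promoters of genes with a large difference were searched for short recognition sequences of such factors, since Hnf4a and Rest are themselves measured here. RefSeq promoter windows (GRCm38.p6, from 250 bases before each start into the first bases after it) were matched by symbol to 354 of the 487 large kidney genes, which have 444 windows, and to 405 of the 567 large brain genes, which have 588. The letters searched on both strands were CAAAGTCCA for HNF4 and TTCAGCACC, the left part of the RE1 element bound by REST, and neither contains the other. HNF4 letters stood in 10 kidney windows (2.25%), 3 brain windows (0.51%) and 94 (0.492%) of the 19102 windows of all measured genes. RE1 letters stood in 0 of the 444 kidney windows, 6 brain windows (1.02%) and 82 (0.429%) of all. Windows of the same gene can overlap and hold the same match, as for Agxt2, so these are shares of windows and not of genes. A match is a description of letters and not of a bound site, and a window without a match has no such letters, which says nothing of the factor. The 3 windows below belong to genes described in the next paragraphs, 250 bases upstream of the start, with the matched letters in capitals.
Slc3a1, chr17:85028097-85028346, plus strand, HNF4 letters: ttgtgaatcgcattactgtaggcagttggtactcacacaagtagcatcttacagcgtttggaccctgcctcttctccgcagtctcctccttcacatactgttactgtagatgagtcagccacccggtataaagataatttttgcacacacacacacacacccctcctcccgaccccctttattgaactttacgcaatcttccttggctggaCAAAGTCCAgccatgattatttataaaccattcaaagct
Syn1, chrX:20920919-20921168, minus strand, RE1 letters: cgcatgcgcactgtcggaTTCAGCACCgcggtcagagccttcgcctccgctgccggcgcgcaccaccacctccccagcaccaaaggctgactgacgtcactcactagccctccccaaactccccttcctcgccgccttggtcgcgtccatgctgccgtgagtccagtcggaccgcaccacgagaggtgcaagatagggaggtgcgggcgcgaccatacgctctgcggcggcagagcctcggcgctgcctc
Nlgn1, chr3:26153987-26154236, minus strand, RE1 letters: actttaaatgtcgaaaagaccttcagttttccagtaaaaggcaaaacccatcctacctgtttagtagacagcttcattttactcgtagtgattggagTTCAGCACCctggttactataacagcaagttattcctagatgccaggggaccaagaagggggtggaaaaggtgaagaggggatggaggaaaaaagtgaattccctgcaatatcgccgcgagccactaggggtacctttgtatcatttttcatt
In Slc3a1 the match begins 39 bases before the start, whereas in Nlgn1 and Syn1 it begins 153 and 232 bases before it.

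**Figure D1:**
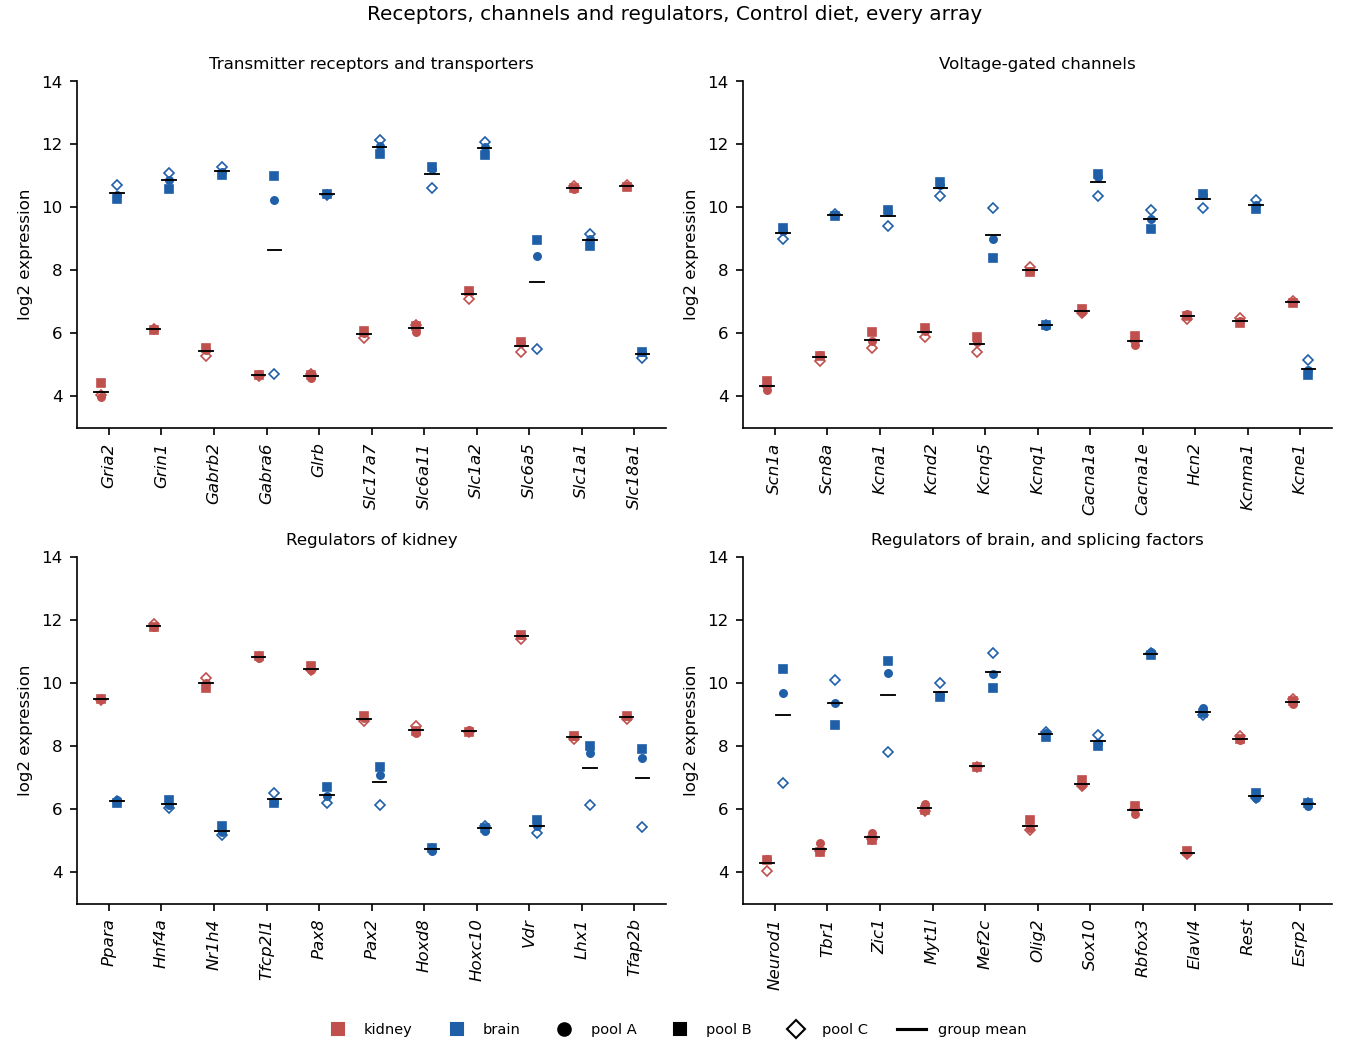
Log2 expression (y axis) of single genes (x axis) on every Control array, kidney in red and brain in blue, with a bar at each group mean. Circles, squares and open diamonds are pools A, B and C. Hnf4a and Vdr stand high in kidney, Rbfox3 and Gria2 in brain, and the open diamond of brain leaves arrays A and B for Gabra6 (4.71), Slc6a5 (5.51), Neurod1 (6.84), Zic1 (7.82), Lhx1 (6.14) and Tfap2b (5.43).

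The podocyte covers the glomerular filter. Of 14 podocyte genes, 7 were higher in kidney, 3 in brain and 4 were not called, with a median of 0.62. Clic5, which ties the cell membrane to actin, read 9.50, 9.72 and 9.82 in kidney and 6.86, 6.74 and 6.79 in brain, a difference of 2.88 (SE 0.09, adjusted p = 7.7e-28). Npnt (2.65), Podxl (1.81), Wt1 (1.04) and Nphs1 (1.00) were also higher in kidney. Magi2, a scaffold of both the slit diaphragm and the synapse, read 7.86, 7.83 and 7.75 in kidney and 10.07, 10.03 and 10.51 in brain, a difference of -2.39. Plce1 (-1.07) and Thsd7a (-0.97) were also higher in brain. Synpo, an actin-binding protein of podocyte foot processes and dendritic spines, overlapped between tissues, with a difference of 0.08 (95% interval -0.18 to 0.34).

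The proximal tubule reclaims most of the filtered solute through sodium-coupled carriers, and each of its 28 uptake genes was higher in kidney, 22 of them with a large difference (median 4.67). Slc34a1, the phosphate carrier of the brush border, read 13.40, 13.42 and 13.39 in kidney and 6.11, 6.31 and 6.05 in brain, a difference of 7.25 (SE 0.09, 152-fold, adjusted p = 2.2e-40). The sulfate carrier Slc13a1 differed by 7.21, the cystine and glutamate carrier Slc7a13 by 7.14 and the lactate carrier Slc5a12 by 6.90. For amino acids, Slc6a19, the neutral carrier, read 10.90, 10.90 and 10.98 against 5.01, 5.08 and 5.09 (difference 5.87). Slc3a1, the heavy chain of cystine uptake whose promoter is printed above, read 12.33, 12.23 and 12.30 against 5.94, 6.17 and 5.69 (6.35), and its light chain Slc7a9 differed by 4.55. For glucose, Slc5a2, the SGLT2 carrier of the early segment, differed by 4.65 and Slc5a1, the SGLT1 carrier of the late segment, by 2.46, while the exit carrier Slc2a2 differed by 5.47. The smallest differences were those of the basolateral Slc7a8 (1.15) and the bicarbonate carrier Slc4a4, which astrocytes also express and which read 12.50, 12.55 and 12.60 in kidney and 11.04, 11.21 and 10.46 in brain (1.65).

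The remaining uptake genes were Slc17a3 (6.22), Slc17a1 (6.09), Slc5a8 (5.94), Slc6a20b (5.01), Slc6a18 (4.93), the sodium-proton exchanger Slc9a3 (4.70), Slc5a10 (4.69), Slc7a7 (4.64), Slc13a2 (4.33), Slc16a12 (4.26), Slc13a3 (4.12), Slc26a1 (4.05), the fructose carrier Slc2a5 (3.79), Slc6a13 (2.97), the peptide carrier Slc15a2 (1.89) and Slc34a3 (1.68). None of them overlapped between the tissues.

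Organic ion secretion, the route by which the tubule clears drugs and metabolites, was nearly as one-sided. Of 19 genes, 18 were higher in kidney and 1 in brain, with 15 large differences and a median of 4.05. Slc22a6, the organic anion transporter OAT1, read 12.45, 12.58 and 12.58 in kidney and 7.56, 7.41 and 7.32 in brain, a difference of 5.11 (SE 0.10). The organic cation transporter Slc22a2 (6.07), the exporter Slc47a1 (5.45), Slco1a1 (7.04), Slc22a19 (6.60), Slco1a6 (5.82) and the pump Abcc2 (5.72) differed more. Slc22a12 (4.59), Abcg2 (4.05), Slc22a7 (3.71), Slc22a8 (3.56), Slc22a5 (3.55), Slco4c1 (3.44) and Slc22a13 (3.25) also had large differences, and Slc22a4 (1.94, and 1.59 without brain array C), Abcc4 (1.42) and Abcb1b (0.93) smaller ones. The exception was Slco1a4, an anion transporter of the blood-brain barrier, which read 5.88, 5.59 and 5.91 in kidney and 8.03, 7.85 and 7.86 in brain, a difference of -2.12 (SE 0.18, adjusted p = 2.3e-13).

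A list of brush border, endocytosis and other tubule genes had the highest list median, 6.43, with all 16 higher in kidney and 15 of them large. Members of this and the other short lists were chosen with earlier results of these data known. The median, its rank and the count can therefore reflect that choice. Lrp2 and Cubn, the receptors that take up filtered protein, differed by 6.89 and 6.55. Lrp2 read 12.47, 12.56 and 12.53 in kidney and 5.59, 5.67 and 5.64 in brain. Besides Kap, Mep1a and Acsm2 above, Miox (7.46), Klk1 (6.78), Slc27a2 (6.49), Cyp4b1 (6.36), Ggt1 (5.40), Anpep (4.78), the water channel Aqp1 (4.77), Mep1b (4.59), Dab2 (3.98) and Amn (1.74) followed.

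The thick ascending limb, which dilutes the urine by taking up salt without water, had 13 of 14 genes higher in kidney, 9 with a large difference (median 3.31). Slc12a1, the carrier blocked by loop diuretics, read 11.88, 11.88 and 11.87 in kidney and 4.95, 4.95 and 4.96 in brain, a difference of 6.93 (SE 0.10, adjusted p = 4.9e-38). Umod, a urinary protein, differed by 6.97, Egf by 5.99 and Kcnj1, the ROMK channel that recycles potassium, by 5.42. Bsnd, an accessory subunit of chloride exit, differed by 2.96. Ptger3 (3.29), the calcium sensor Casr (3.12) and the claudins Cldn19 (2.57), Cldn10 (2.32) and Cldn16 (1.73) were also higher in kidney. Kcnj16 and Kcnj10 form one basolateral potassium channel in kidney, and they differed in opposite directions. Kcnj16 read 11.72, 11.82 and 11.67 in kidney and 8.38, 8.43 and 7.95 in brain (3.48), whereas Kcnj10, also the main potassium channel of astrocytes, read 8.19, 8.36 and 8.30 against 9.75, 9.78 and 9.23 (-1.30).

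In the distal convoluted and connecting tubule 7 of 16 genes were higher in kidney, 3 in brain and 6 were not called. Slc12a3, the thiazide-sensitive carrier, read 12.78, 12.76 and 12.67 in kidney and 6.40, 6.53 and 6.66 in brain, a difference of 6.21. Fxyd2, the gamma subunit of the sodium pump, differed by 5.12, the aging-suppressor and FGF23 coreceptor Kl by 3.92, the kinase Wnk4 by 3.38, the calcium channel Trpv5 by 2.73, the magnesium channel Trpm6 by 2.01 and Trpm7 by 1.70. Calcium handling proteins are shared with Purkinje cells and interneurons. Calb1 read 10.75, 10.77 and 10.80 in kidney and 10.72, 11.00 and 9.76 in brain, so the tissues overlapped, with a difference of 0.28 (95% interval -0.11 to 0.67), or -0.09 without brain array C. Pvalb read 7.37, 7.49 and 7.45 against 9.71, 10.05 and 8.08 (-1.84, and -2.45 without brain array C). The calcium pump Atp2b4 (-2.20) and the kinase Stk39 (-0.97) were also higher in brain. Wnk1 (0.57), Klhl3 (0.42), Cnnm2 (0.41), Trpv6 (0.38) and Slc8a1 (0.21) were not called.

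Principal cells of the collecting duct take up sodium under aldosterone and water under vasopressin. Of their 14 genes, 10 were higher in kidney and 4 were not called. All subunits of the epithelial sodium channel had large differences, Scnn1g 3.85, Scnn1a 3.82 and Scnn1b 3.37. Hsd11b2, the enzyme that shields the aldosterone receptor from cortisol-like hormones, read 10.79, 10.85 and 10.57 in kidney and 5.86, 5.89 and 5.73 in brain (4.91). The receptor itself, Nr3c2, read 7.41, 7.46 and 7.40 in kidney and 7.82, 7.70 and 7.88 in brain, a difference of -0.38 (95% interval -0.52 to -0.23), under the fold threshold. Its downstream genes Sgk1 (-0.13) and Nedd4l (-0.06) overlapped between tissues. Among the water channels, Aqp3 differed by 2.91 and Aqp2 by 2.13, and Avpr2, the vasopressin receptor, by 0.96. Aqp4, shared with astrocyte end-feet, read 8.93, 8.83 and 8.98 in kidney and 9.55, 9.77 and 8.79 in brain, a difference of -0.46 (95% interval -0.79 to -0.12) that became -0.75 and a call without brain array C. Gata3 (2.04), Fxyd4 (1.77) and Elf5 (1.09) complete the list.

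Intercalated cells secrete acid or base with a proton pump whose subunits exist in several forms. Of 16 genes, 14 were higher in kidney and 2 (Hmx2, 0.27, and Slc26a7, 0.10) were not called, with 6 large differences. The pump subunits of these cells led the list. Atp6v0d2 read 9.44, 9.47 and 9.56 in kidney and 4.15, 4.12 and 4.24 in brain, a difference of 5.32 (SE 0.12). Atp6v0a4 read 10.49, 10.64 and 10.72 against 5.78, 5.75 and 5.86 (4.82). Atp6v1b1 differed by 3.62, Atp6v1g3 by 2.78 and Atp6v1c2 by 1.28. The ammonia channels Rhcg (3.57) and Rhbg (2.55), the anion exchangers Slc4a9 (3.16), Slc26a4 (3.09) and Slc4a1 (2.45) and the cell's master regulator Foxi1 (2.64) were higher in kidney. Car15 (1.46) and Car2 (0.85), carbonic anhydrases, differed less, and Car2 is also known from oligodendrocytes. Aqp6 read 9.41, 9.39 and 9.28 in kidney and 7.76, 7.93 and 5.40 in brain, so its difference of 2.33 was 1.51 without brain array C.

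Genes of the medulla and of the kidney's hormone systems followed. Of 9 urea and medulla genes, 6 were higher in kidney and 1 in brain. The urea transporters went opposite ways: Slc14a2, of the collecting duct, read 8.81, 8.86 and 8.63 in kidney and 6.34, 6.35 and 6.43 in brain (2.39), and Slc14a1, of the vasa recta and of astrocytes, read 7.30, 7.17 and 7.17 against 8.25, 8.43 and 7.63 (-0.89). The osmolyte genes Slc5a3 (2.28), Akr1b3 (1.63) and Slc6a6 (1.62) were higher in kidney, and Nfat5 (0.31) and Slc6a12 (0.14) were not called. Of 10 endocrine genes, 8 were higher in kidney and 0 in brain. Vdr, the vitamin D receptor, read 11.53, 11.54 and 11.41 in kidney and 5.49, 5.67 and 5.26 in brain, a difference of 6.02. Pth1r (4.34), the vitamin D enzymes Cyp24a1 (4.32), Cyp27b1 (1.81) and Cyp2r1 (1.29), Ren1, the renin gene (3.80), and Ace (2.62) were higher in kidney. Agt (-0.12) and Epo (-0.04) overlapped between tissues, with values of Epo from 4.70 to 5.18.

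**Figure D2:**
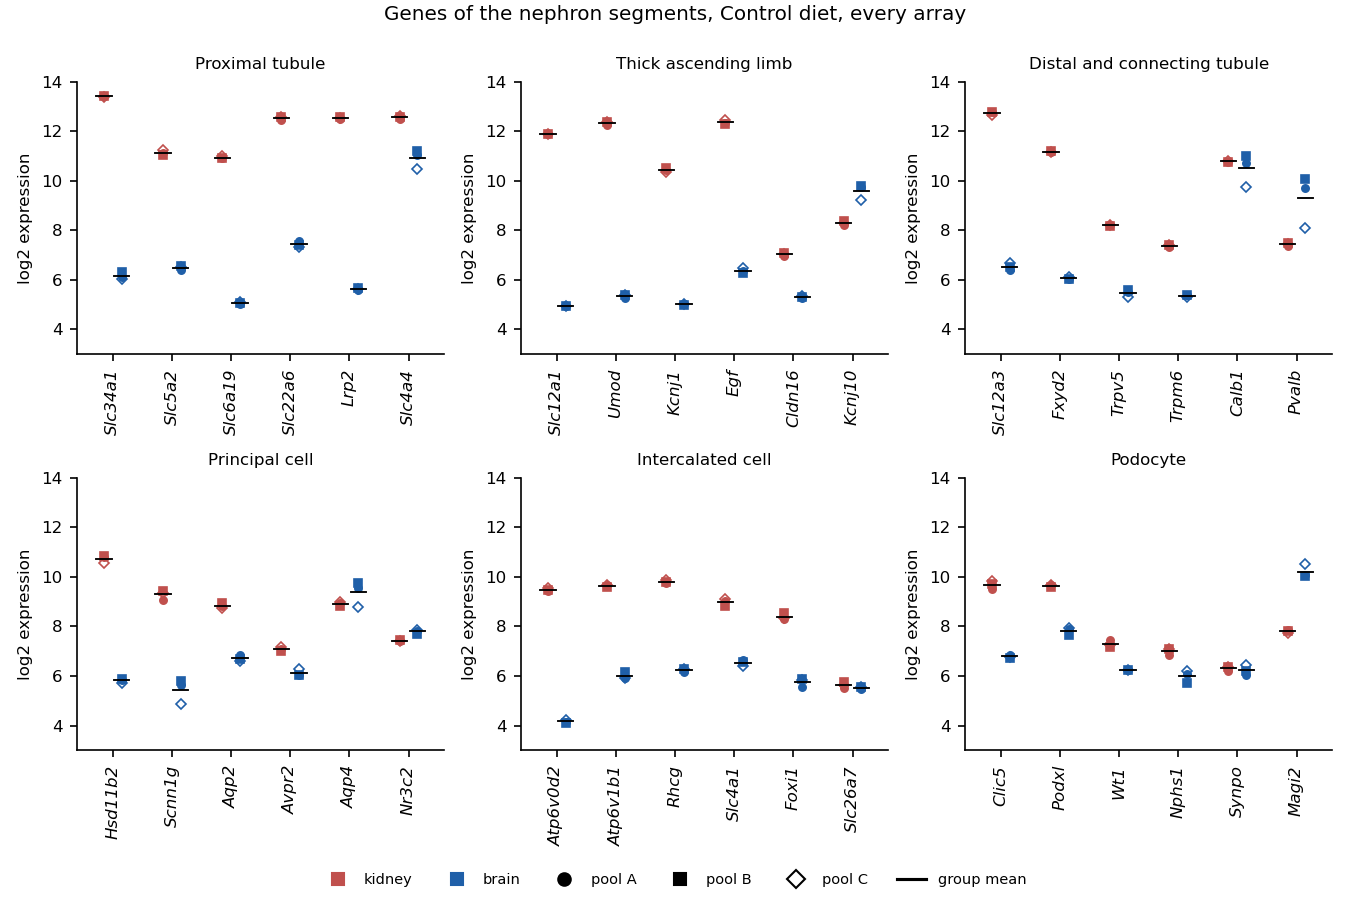
Log2 expression (y axis) of single genes (x axis) on the 6 Control arrays, grouped by nephron segment, kidney in red and brain in blue, with a bar at each group mean and pools A, B and C as circles, squares and open diamonds. Slc34a1, Slc12a1 and Slc12a3 lie 6 or more log2 units apart, whereas Calb1, Aqp4, Synpo and Slc26a7 overlap, and Kcnj10, Pvalb and Magi2 are higher in brain.

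Genes of transmitter release and the synapse were almost uniformly higher in brain. Of 22, 21 were higher in brain, 16 with a large difference, and 1 in kidney, with a median of -4.25. Besides Snap25, the calcium sensor Syt1 differed by -6.54 and the kinase Camk2a by -6.13. Syn1, a coat protein of synaptic vesicles whose promoter holds the RE1 letters printed above, read 12.38, 12.20 and 12.61 in brain and 6.23, 5.90 and 6.13 in kidney, a difference of -6.31 (SE 0.12, adjusted p = 1.2e-34). Nlgn1, a postsynaptic adhesion protein with RE1 letters too, read 8.47, 8.25 and 8.92 in brain and 4.03, 4.31 and 4.09 in kidney (-4.40). Cplx1 (-5.21), Nrxn3 (-5.12), Camk2b (-4.89), Shank1 (-4.87), Dlg4 (-4.68), Rims1 (-3.98), Rab3a (-3.97), Syn2 (-3.75) and Bsn (-3.07) were large as well. Cplx2 (-2.95), Vamp2 (-2.67), Homer1 (-1.98), Stx1a (-1.92, and -1.56 without brain array C) and Shank3 (-1.38) differed less. Shank2, a scaffold of synapses and of epithelial membranes, was the exception, reading 9.89, 9.86 and 9.79 in kidney and 8.94, 9.01 and 8.86 in brain (0.91).

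Axon genes were called in 15 of 15, all higher in brain. Stmn2 (-6.06), the neurofilaments Nefl (-5.76), Nefm (-4.20) and Nefh (-3.17), Cntn1 (-5.61), Map2 (-4.77), Stmn3 (-4.26), Nfasc (-4.07), Cntnap1 (-3.93), Cntnap2 (-3.45), Gap43 (-3.25) and Cntn2 (-3.10) had large differences. Nefh became -3.50 without brain array C. Sptbn4 (-1.20), Ank3 (-0.82), which anchors channels in axons and in epithelia, and Mapt, the tau gene, differed least. Mapt read 8.70, 8.65 and 8.52 in kidney and 9.31, 9.53 and 9.35 in brain (-0.77).

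Transmitter receptors that are channels were among the most one-sided families. Of 18 ionotropic glutamate receptor genes, 17 were higher in brain and 1 was not called (median -3.10). Gria2, the AMPA receptor subunit that blocks calcium entry, read 10.39, 10.27 and 10.70 in brain and 3.98, 4.42 and 4.06 in kidney, a difference of -6.30 (SE 0.13, adjusted p = 1.7e-33). Gria1 differed by -5.82, Grin2b by -5.35 and Grin1, the obligate NMDA receptor subunit, by -4.73. Of 19 GABA-A subunit genes, 14 were higher in brain and 5 were not called. Gabrb2, a beta subunit, read 11.12, 11.02 and 11.30 in brain and 5.48, 5.52 and 5.28 in kidney (-5.72), and the hippocampal Gabra2 differed by -5.11. The difference of Gabra6, -3.97 with an SE of 0.76, was -5.94 without brain array C. Of 5 glycine receptor genes 4 were higher in brain. Glrb, the beta subunit, read 10.43, 10.44 and 10.39 in brain and 4.57, 4.67 and 4.72 in kidney (-5.76), and Glra1, of hindbrain and cord, differed by -3.64, or -4.61 without brain array C.

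Other transmitter-gated channels were called less often. Over all genes, the shares were 14.2% higher in brain and 15.7% higher in kidney. Of 18 nicotinic and serotonin-gated genes, Chrnb2 (-1.87), Chrna7 (-1.23) and Htr3a (-0.94) were higher in brain, Chrnb1 (0.93) was higher in kidney and 14 were not called, and without brain array C 4 were higher in brain. Of 12 P2X and acid-sensing genes, Asic2 (-2.98), Asic1 (-2.26) and P2rx7 (-0.73) were higher in brain and P2rx4 (1.76), an ATP-gated channel, in kidney.

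Voltage-gated sodium channels of the axon were higher in brain, while the muscle, heart and sensory forms were not called. Scn1a (-4.86), Scn2a1 (-4.63), Scn8a (-4.50) and Scn3a (-3.58) were called of 10 alpha subunit genes, and all 4 beta subunit genes were higher in brain, from -4.17 for Scn2b to -1.24 for Scn4b. Scn8a read 9.75, 9.71 and 9.79 in brain and 5.33, 5.29 and 5.13 in kidney. Against these, the 3 epithelial sodium channel genes described above were higher in kidney.

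Potassium channels showed brain forms in every class and a few kidney forms. Of 40 voltage-gated pore subunit genes, 29 were higher in brain, or 28 without brain array C, and 1 in kidney. Kcnd2, an A-type channel of dendrites, read 10.71, 10.81 and 10.37 in brain and 6.09, 6.18 and 5.89 in kidney, a difference of -4.58 (SE 0.11, adjusted p = 4.5e-31). Kcna1 (-3.95), Kcnh7 (-3.72, and -3.39 without brain array C) and Kcna6 (-3.60) followed. The gene higher in kidney was Kcnq1, which read 7.97, 7.94 and 8.11 in kidney and 6.24, 6.27 and 6.25 in brain (1.76). Its partner Kcne1 was also the auxiliary subunit gene higher in kidney, at 7.01, 6.96 and 7.02 against 4.82, 4.67 and 5.14 (2.12), while 10 of the 20 auxiliary genes were higher in brain, led by Kcnip4 (-5.52), Dpp10 (-4.91) and Dpp6 (-4.77). Of 15 inward rectifiers, 7 were higher in brain, with Kcnj3 (-3.91), Kcnj6 (-2.41) and Kcnj9 (-2.12), which are opened by G proteins, in the lead, and 3 in kidney. These were Kcnj15, which read 11.93, 12.06 and 11.90 against 5.56, 5.70 and 5.66 (6.33), Kcnj1 (5.42) and Kcnj16 (3.48). Of 14 K2P leak channels, 7 were higher in brain, or 6 without brain array C, led by Kcnk9 (-3.34), and 1 in kidney, Kcnk5 (5.12), which supports bicarbonate uptake in the proximal tubule. Of 8 calcium- and sodium-activated channels, 5 were higher in brain, led by Kcnma1 (-3.68), and 0 in kidney.

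Calcium channels were higher in brain wherever they were called. Of 10 alpha subunit genes 8 were called, Cacna1a (-4.10) and Cacna1e (-3.85) with large differences, and of 15 auxiliary genes 13, led by Cacng3 (-5.61, and -5.25 without brain array C) and Cacng7 (-4.74), which escort AMPA receptors. Cacna1a, the P/Q-type channel of presynaptic terminals, read 10.98, 11.05 and 10.36 in brain and 6.68, 6.78 and 6.64 in kidney. Of 10 HCN and CNG genes, the 4 Hcn genes were higher in brain, among them Hcn2 (-3.74), Hcn4 (-1.26) and Hcn3 (-0.76), and the other 6 were not called. TRP and polycystin channels were split, with 6 of 28 higher in kidney (Trpv5 2.73, Trpv4 2.73, Pkd2 2.06, Trpm6 2.01, Mcoln3 1.81 and Trpm7 1.70) and 8 in brain, led by Trpc5 (-3.13) and Trpm3 (-2.86). Pkd2, a gene of polycystic kidney disease, read 10.27, 10.26 and 10.39 in kidney and 8.36, 8.28 and 8.12 in brain. ClC chloride channels and anoctamins were split as well. Of 24, 8 were higher in kidney, among them Clcn5 (2.38), the exchanger of proximal tubule endosomes. In brain 5 were higher, led by Ano3 (-4.77, and -4.44 without brain array C). The shares over all genes were 15.7% higher in kidney and 14.2% higher in brain.

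Water channels and claudins were called mostly in kidney, and connexins in either tissue. Of 12 aquaporins, 6 were higher in kidney and 0 in brain, or 1 without brain array C (Aqp4, above): Aqp1, Aqp7 (4.06), Aqp3, Aqp6, Aqp2 and Aqp11 (2.09). Of 23 claudins, 11 were higher in kidney, led by Cldn2 (4.53), which makes the proximal tubule leaky, and Cldn8 (3.93), of the collecting duct, and 1 in brain. That gene, Cldn11, seals myelin and read 10.60, 10.65 and 10.46 in brain and 6.87, 7.14 and 7.01 in kidney (-3.56). Of 23 connexin and pannexin genes, 5 were higher in brain, led by Gjc3 (-5.07) of oligodendrocytes and Gja1 (-3.35) of astrocytes. In kidney 3 were higher, led by Gjb2 (2.93), and 15 were not called. Over all genes, 14.2% were higher in brain and 15.7% in kidney.

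**Figure D3:**
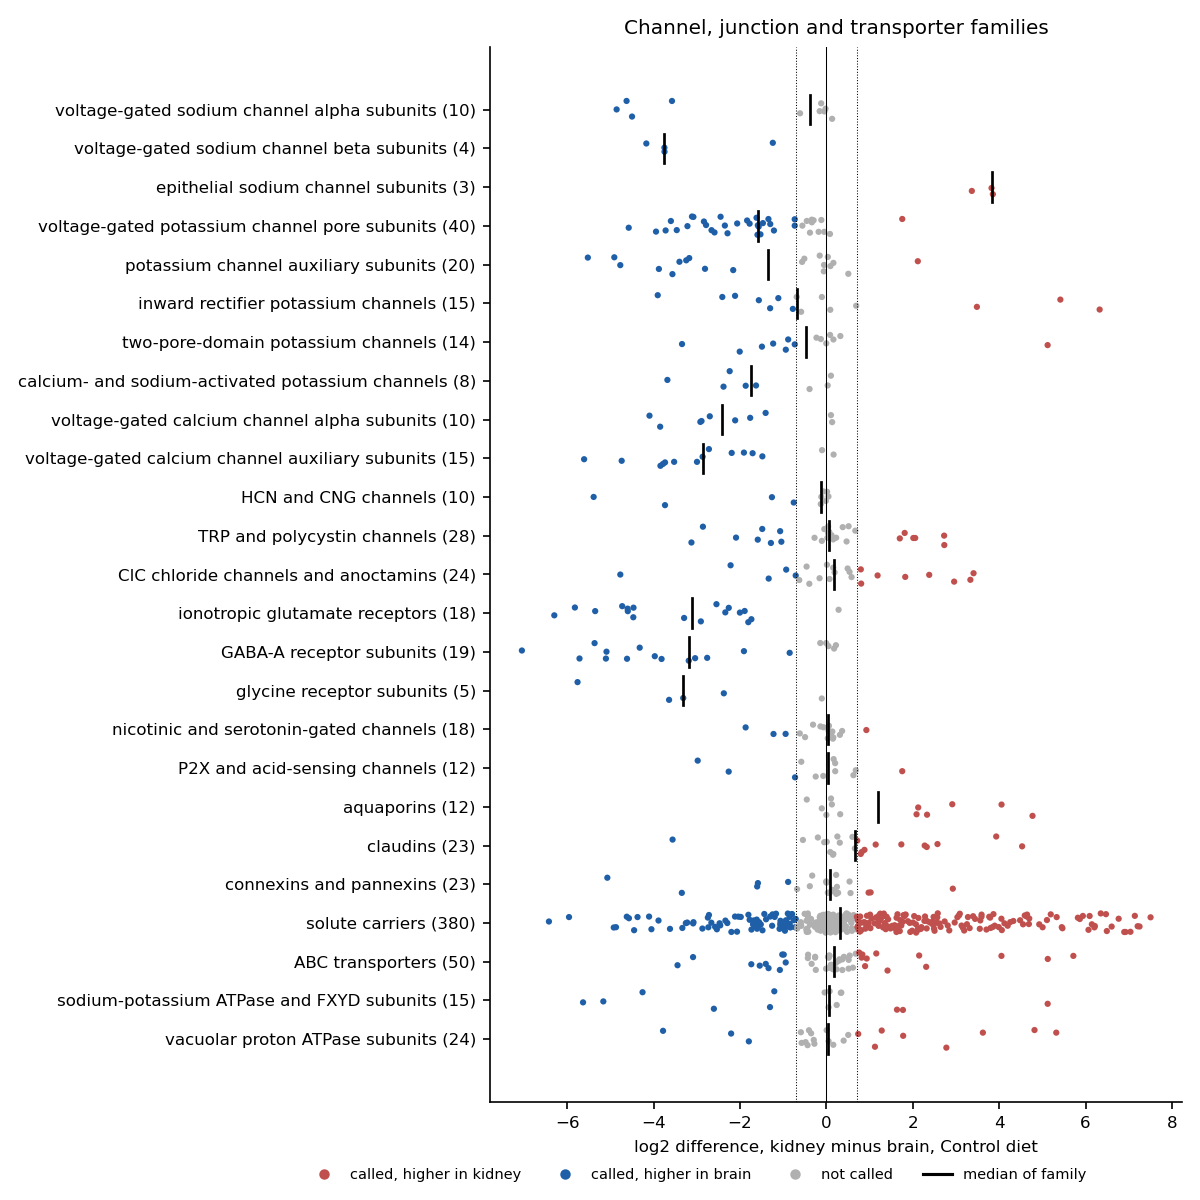
Log2 difference, kidney minus brain (x axis), for every measured gene of 25 channel, junction and transporter families (rows, with the number of genes in parentheses), coloured by call, with a black bar at the family median and dotted lines at 0.7 on either side of 0. Glutamate, GABA-A and glycine receptor families have medians near -3, the epithelial sodium channel a median of 3.82, and the 380 solute carriers reach from -6.43 to 7.51.

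Transmitter transporters did not follow one side. Of 24 genes, 17 were higher in brain, 3 in kidney and 4 were not called. Slc17a7, which fills vesicles with glutamate, read 11.95, 11.69 and 12.15 in brain and 6.00, 6.06 and 5.85 in kidney, a difference of -5.96 (SE 0.09, adjusted p = 1.7e-37). The GABA carrier Slc6a11 (-4.87), the astrocyte glutamate carriers Slc1a2 (-4.62) and Slc1a3 (-4.57), and Slc38a1 (-4.37), Slc17a6 (-3.62) and Slc6a17 (-3.09) also had large differences. Slc18a1, the vesicular monoamine transporter of endocrine cells, was the reverse, with 10.67, 10.65 and 10.71 in kidney and 5.40, 5.40 and 5.23 in brain (5.33). Slc1a1, a neuronal glutamate carrier that also serves the renal tubule, read 10.60, 10.62 and 10.67 in kidney and 8.99, 8.78 and 9.16 in brain (1.65). Slc6a4, the serotonin carrier, was called higher in kidney (0.75), but without brain array C its difference was 0.25 and not called.

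The glycine carrier Slc6a5 read 8.46, 8.96 and 5.51 in brain and 5.68, 5.73 and 5.41 in kidney, so its arrays overlapped and its difference of -2.04 was -3.11 without brain array C. Slc32a1 (-2.73), Slc6a7 (-1.81), Slc1a6 (-1.61, or -2.12), Slc6a9 (-1.07, or -1.39), Slc18a3 (-0.97), Slc5a7 (-0.96), Slc18a2 (-0.85, or -1.19) and Slc6a3 (-0.85) were also higher in brain, with the second value that without brain array C. Slc6a15 (-0.27), Slc17a8 (-0.15), Slc1a4 (-0.09) and Slc6a2 (-0.03) overlapped between tissues.

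Ion carriers and pumps of neurons differed by isoform, and of 24 genes 16 were higher in brain, 2 in kidney and 6 were not called. Of the beta subunits of the sodium pump, Atp1b2 differed by -4.26, while Atp1b1 read 12.93, 12.94 and 12.95 in kidney and 12.58, 12.67 and 12.56 in brain, a difference of 0.33 (95% interval 0.21 to 0.46), and Atp1b3 differed by -0.04 (-0.24 to 0.16). The potassium-chloride exporters divided likewise. Slc12a5, which keeps chloride low in neurons, differed by -4.11, and Slc12a7 by 3.03, whereas Slc12a4 (0.14) was not called. Slc12a2, the importer, overlapped between tissues (-0.43). The calcium exchangers Slc24a2 (-6.43), Slc24a3 (-4.05), Slc8a2 (-3.26), Slc24a4 (-2.75, or -2.36 without brain array C) and Slc8a3 (-2.07) and the pumps Atp2b3 (-4.30), Atp2b2 (-3.97) and Atp2b1 (-1.95) were higher in brain, as were the bicarbonate carriers Slc4a10 (-4.45), Slc4a3 (-1.74) and Slc4a8 (-1.52).

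Counted together, channels and carriers leaned to opposite tissues. Of 285 genes in 19 channel families, 145 (50.9%) were higher in brain and 31 (10.9%) in kidney, with a median of -0.73. Among all genes, 14.2% were higher in brain and 15.7% in kidney. Claudins, connexins and pannexins were not counted in these channel families. Of 469 genes in 4 carrier and pump families, 181 (38.6%) were higher in kidney and 93 (19.8%) in brain, with a median of 0.27. Large differences were found for 61 channel genes in brain and 11 in kidney, and for 23 carrier and pump genes in brain and 70 in kidney. Of 258 genes in 11 families of transcription factors, 60 (23.3%) were higher in kidney and 42 (16.3%) in brain, so regulators were closer to the shares over all genes. Vacuolar proton pump genes show the split within one complex: 8 of 24 were higher in kidney and 3 in brain, where Atp6v1g2 read 11.93, 11.86 and 11.97 against 8.14, 8.17 and 8.10 in kidney (-3.78). Of 50 ABC transporters, 12 were higher in kidney, led by Abcc2, Abca13 (5.13) and Abcg2, and 10 in brain, led by Abcd2 (-3.45) and Abcg4 (-3.09).

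Some subfamilies had a kidney member and a brain member. Of 87 subfamilies with at least 2 measured genes, 42 had calls in each direction, 23 in kidney only, 18 in brain only and 4 had none. With 15.7% of all genes called higher in kidney and 14.2% in brain, a large subfamily, such as Slc25 with 47 genes, can hold both. Whether 42 is more than these shares would give was not tested. In 11 of them a large difference was found in each direction. Slc2a2, the low-affinity glucose carrier, read 11.12, 11.12 and 11.26 in kidney and 5.71, 5.64 and 5.75 in brain, whereas Slc2a3, the neuronal one, read 5.71, 5.92 and 5.64 in kidney and 9.17, 9.03 and 9.08 in brain (-3.34). Slc17a3, an anion carrier, and Slc17a7 differed by 6.22 and -5.96. Other pairs were Slc12a1 and Slc12a5, Slc7a13 (7.14) and Slc7a14 (-3.89), Slc4a9 and Slc4a10, Slc39a8 (3.40) and Slc39a12 (-3.22), Kcnj15 and Kcnj3, Kcnk5 and Kcnk9, Abcg2 and Abcg4, and Cldn2 and Cldn11. Slc39a8 and Slc39a12 both belong to the zinc importers. Each pair holds the genes with the largest difference in either direction, so all pairs were picked by their values. Slc2a3, Slc7a14, Slc39a8 and Slc39a12 were named only after their values were seen.

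**Figure D4:**
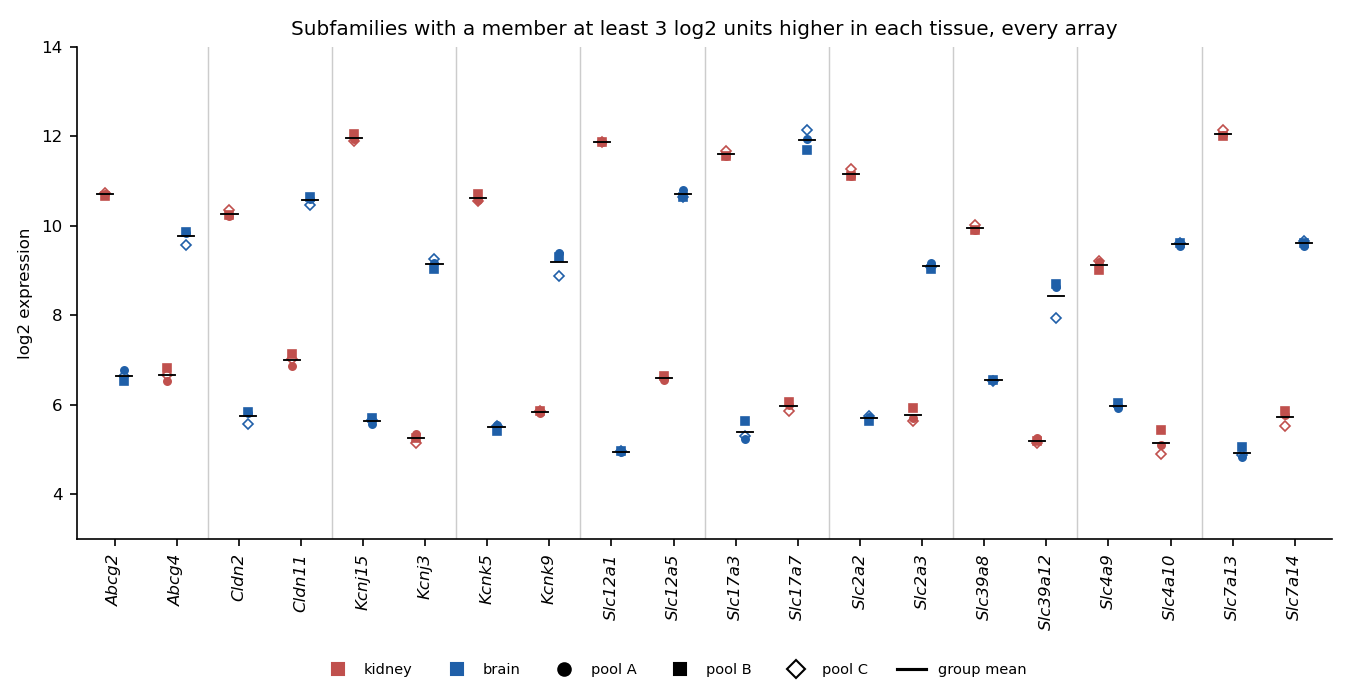
Log2 expression (y axis) of the gene with the largest difference in each direction (x axis) in 10 of the 11 subfamilies that hold a large difference both ways, on every Control array, kidney in red and brain in blue, with group means as bars and pools A, B and C as circles, squares and open diamonds. In each pair the first gene is higher in kidney and the second in brain, with no overlap between the tissues.

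Markers of other cell types were checked because whole tissue was measured. Astrocyte genes were higher in brain in 7 of 10, or 8 without brain array C, and higher in kidney in 1 (Slc4a4), and oligodendrocyte genes in 10 of 12 and 1 (Aspa, 2.48). Microglia and macrophage genes had 5 of 10 calls in brain, from -1.22 for P2ry12 to -0.72 for C1qb, of which 2 were called without brain array C. Of 12 endothelial genes, Slco1c1 (-2.87), Ehd3 (-1.40) and Abcb1a (-1.08), the first and last of the blood-brain barrier, were higher in brain, or 4 genes without brain array C, and Emcn (3.05), Plvap (2.69), Kdr (2.08), Tek (1.37), Pecam1 (1.32) and Cdh5 (1.02) in kidney. Of 9 choroid plexus genes, Kl, Folr1 (4.41) and Prlr (1.92), which are also known from kidney, were higher in kidney, and Kcnj13 (-1.57), Ttr (-1.25), Otx2 (-1.14) and Clic6 (-0.93) were higher in brain.

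Tissue next to kidney or brain was checked by its own genes. Of 12 adrenal genes, 3 were called, all higher in brain (Chga, Th and Dbh, which brain neurons express; Th differed by -1.35 and Dbh by -1.07, or -1.71 and -1.58 without brain array C), and the steroid genes Cyp11a1 (-0.41), Cyp11b1 (-0.12), Star (0.01) and Cyp17a1 (0.34) were not called. Of 10 adipose genes, Fabp4 (2.85) and Car3 (3.97) were higher in kidney, and the list mean was 6.48 to 6.56 on the kidney arrays and 5.70 to 5.80 on the brain arrays, while Adipoq read 4.43 to 4.77 and Lep 5.22 to 5.51 over both tissues. Of 12 pancreas genes 0 were called, also 0 without brain array C, and 1 had an adjusted p under the threshold (Cela1, 0.52). Of 10 pituitary genes, Gh was called (-0.83), and not without brain array C. Hba-a2 (0.80) and Hbb-bs (0.74) were higher in kidney, and 1 of the 2 was called without that array. Of 14 liver genes, 6 were higher in kidney, led by Cyp2e1 (7.44), Apob (4.81) and Serpina1a (4.50), while Fgb (0.13), Apoa1 (-0.11) and Cyp7a1 (-0.15) overlapped. The part of these cell types in the differences above was not tested.

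Of 10 cerebellum genes, 9 were higher in brain with a median difference of -2.92, and also 9 without brain array C (-4.22). Their level varied widely among the brain arrays. The mean over 10 cerebellum genes was 9.75, 10.28 and 6.70 in brain Control arrays A, B and C, and 6.08 to 6.19 in kidney Control. It was 8.82, 8.16 and 9.31 in HCD, 8.84, 8.68 and 8.71 in HCD+Gl-1, 7.87, 8.32 and 6.96 in HCD+Gl-2, and 8.57, 7.94 and 9.11 in HCD+Sim. Brain Control thus held the highest and the lowest of the 15 brain arrays. Cbln3, a granule cell protein, read 10.98, 11.71 and 5.93 in brain Control, beside 6.51 to 10.50 (median 9.43) on the other 12 brain arrays and a kidney mean of 5.83, and its difference of -3.71 was -5.51 without brain array C. The striatal receptor Drd2 (8.52, 7.89 and 9.64), chosen after its values were seen, was highest on array C, and above the 12 other brain arrays. The part of cerebellar tissue in these differences was not tested.

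**Figure D5:**
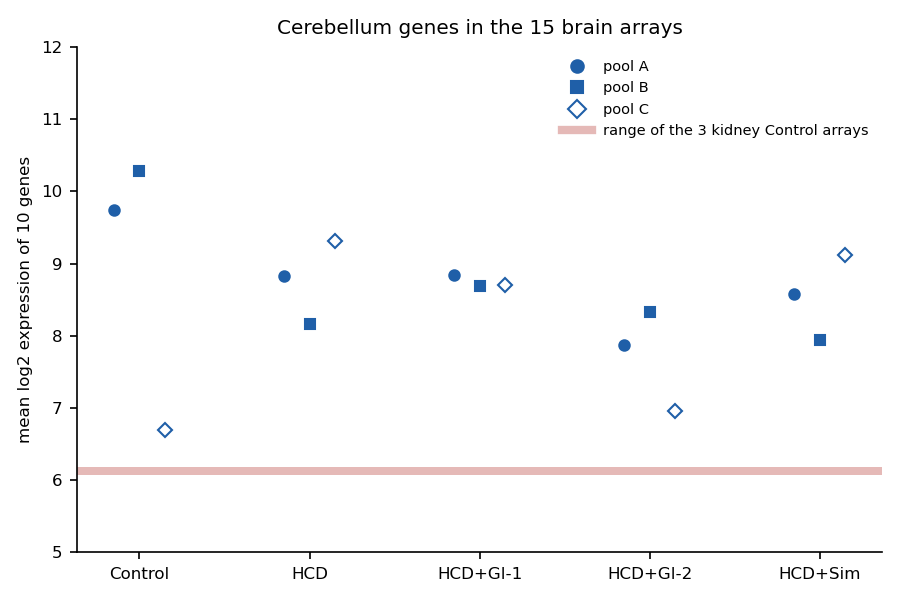
Mean log2 expression of 10 cerebellum genes (y axis) on the 15 brain arrays by diet group (x axis), pools A and B as filled symbols and pool C as open diamonds, with the range of the 3 kidney Control arrays (6.08 to 6.19) as a red band. Brain Control array C, at 6.70, lies nearest the kidney band and brain Control array B, at 10.28, farthest from it.

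The tissue difference was measured again on the other 4 diets, in 24 arrays that share none with Control. Kidney and brain differed in 6746 genes (30.6%) on HCD, 6637 (30.1%) on HCD+Gl-1, 6682 (30.3%) on HCD+Gl-2 and 6760 (30.6%) on HCD+Sim. Of the 6619 Control calls, 94.03% were called in the same direction on HCD, 93.32% on HCD+Gl-1, 91.45% on HCD+Gl-2 and 93.49% on HCD+Sim. These are 92.26%, 93.07%, 90.59% and 91.54% of each diet's own calls. All 1054 large Control differences were called in the same direction on each of the 4 diets. Over genes, which are not independent, the differences correlated with those of Control at 0.9873 to 0.9924. Slc34a1 differed by 7.17 to 7.31 on the other diets (Control 7.25), Slc12a1 by 6.87 to 7.10 (6.93), Gria2 by -6.54 to -6.32 (-6.30) and Snap25 by -7.73 to -7.46 (-7.67). Gabra6 differed by -4.49 to -2.43 (-3.97).

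Few genes had a tissue difference that changed with diet. Tested as a difference of differences in the same fit, 27 genes (0.122%) were called for HCD against Control, 1 (0.00453%) for HCD+Gl-1, 62 (0.281%) for HCD+Gl-2 and 5 (0.0226%) for HCD+Sim, and all 4 tests use the same Control arrays. Without brain array C these counts were 147, 144, 326 and 189, of which 26, 1, 56 and 5 were the genes called with it.

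The Control liver arrays gave a further reference. Kidney differed from liver in 16.8% of genes and brain from liver in 32.7%, in contrasts that use the same kidney and brain arrays as above. For Slc34a1, Slc12a1 and Lrp2 the liver mean (6.41, 5.29 and 6.08) was near that of brain. For Hnf4a (11.60), Slc2a2 (11.71), Abcc2 (11.44), Nr1h4 (10.12) and Apob (12.76) the liver mean was near or above that of kidney. Rest had a liver mean of 8.09, near kidney, and Slc1a2, an astrocyte gene that hepatocytes also express, one of 10.22, between kidney at 7.27 and brain at 11.89.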

How the data were processed

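Affymetrix mouse gene ST arrays had been hybridised with RNA of liver, kidney and brain, 3 per group. The deposited values are log2 expression values, which the authors made by RMA background correction, quantile normalization and ComBat adjustment for batches that the sources used here do not name, keeping 1 probe set per gene by interquartile range; tool versions were not given in the sources used here. The 6 Control arrays of kidney and brain were compared in a limma 3.58.1 fit (R 4.3.3) of all 45 arrays with 15 group means, and p-values were adjusted by Benjamini-Hochberg over 22080 genes. Figures were drawn with matplotlib 3.10.9. The fit was tested on simulated data. The p-values measure the spread between arrays of pools that are not fully independent, 3 arrays per group limit the precision, and an exact two-sided permutation test of 3 against 3 arrays cannot go below 0.1. Named genes were the 10 largest called, non-overlapping differences per direction, up to 4 per direction and family, all genes of the short lists where described, and up to 3 per direction for each change with diet. Some genes of the lists are counted but not reported by name here. The members and lists were chosen with earlier results of these data known. Alternatives were fits on fewer arrays or without any pool C, a block for pool letter, repeated quantile normalization, a minimum level, equal array medians, trended robust moderation, other fold thresholds, the gene strand alone for promoters, and each array left out in turn.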

Additional observations from a re-analysis of the deposited data

Results flagged for a closer look

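For a few genes the kidney minus brain difference itself differed between a diet and Control by the interaction contrast in limma. The values below are the difference on the diet minus the difference on Control, log2 scale, with its SE and adjusted p. All 4 contrasts use the same Control arrays, and each gene below was also called without brain array C. Other arrays mattered more for HCD+Sim. Without kidney array B, 0 genes were called on that diet, so the HCD+Sim genes named below all lost their call. Without kidney array A, 1 gene was called on that diet.

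On HCD+Gl-2, 3 immediate early genes stood out. Egr1 had a value of 4.09 (SE 0.68, adjusted p = 0.00079), since its kidney mean was 6.65 on Control and 10.66 on HCD+Gl-2 while its brain mean was 9.63 and 9.55. Nr4a1 had a value of 3.52 (SE 0.39, adjusted p = 6.9e-07), with kidney means of 6.82 and 10.38. Fos had a value of 2.51 (SE 0.45, adjusted p = 0.0027), with kidney means of 5.96 and 8.69. In the other direction was the clock gene Npas2 at -1.21 (adjusted p = 0.022), or -1.60 without brain array C. Gpr165 at -1.02 (adjusted p = 0.0099) and the carbonic anhydrase Car3 at -0.97 (adjusted p = 3.5e-05) also moved that way.

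On HCD, the kidney minus brain difference moved by 1.23 for Gm10921 (adjusted p = 2.2e-05), 1.12 for Snord115 (adjusted p = 0.005) and 1.11 for Srsy (adjusted p = 9.2e-05). These changes lie in low values. Means on Control and HCD were 3.56 and 4.33 in kidney and 3.75 and 3.29 in brain for Gm10921. For Srsy they were 5.16 and 5.81, and 5.18 and 4.72. For Snord115 they were 3.61 and 4.62, and 12.39 and 12.28. Gm10921 and Srsy had Control means under 6 in both tissues, the level of the filter on dim genes given below. The kidney minus brain difference moved by -1.20 for Gh, the growth hormone gene (adjusted p = 0.019), and by -1.18 for Akr1c18 (adjusted p = 0.019). For Akr1c18 the value was -1.48 without brain array C. On HCD+Gl-1, Gh moved by -2.19 (adjusted p = 2.8e-06), with brain means of 6.86 on Control and 9.08 on HCD+Gl-1. On HCD+Sim, values were 1.05 for Tc2n (adjusted p = 0.029) and 0.87 for the interferon-induced Iigp1 (adjusted p = 0.029). They were 0.85 for Mir124a-1, a gene of a neuronal miRNA (adjusted p = 0.018), and -0.73 for 4930447C04Rik (adjusted p = 0.045). Control means in kidney and brain were low for Iigp1 (5.77 and 4.52), Mir124a-1 (4.04 and 5.36) and 4930447C04Rik (3.28 and 4.54).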

How the results depend on the processing

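Of 590 genes of the lists and the naming rule, 477 were called, 455 of these kept their call under all 14 alternatives run, 22 lost it under at least 1, and 0 changed direction. With no fold threshold, 13045 genes were called on Control (7438 higher in kidney and 5607 in brain), 13265 on HCD, 13217 on HCD+Gl-1, 13274 on HCD+Gl-2 and 12878 on HCD+Sim, and the change with HCD+Gl-2 held 107. Leaving out 1 Control array gave 6578 to 6704 calls (3420 to 3528 in kidney and 3127 to 3190 in brain), of which 1033 to 1095 were large (474 to 498 and 558 to 600), and 6682 to 6686 calls on HCD+Gl-2. Changes with diet were the least stable: leaving out 1 Control array gave 23 to 147 genes for HCD, 1 to 144 for HCD+Gl-1, 32 to 326 for HCD+Gl-2 (326 without brain array C, 32 without brain array A, 37 without kidney array A and 39 without kidney array B) and 0 to 189 for HCD+Sim (189 without brain array C, 3 without brain array A, 1 without kidney array A and 0 without kidney array B). The cause was not tested. Pools A and B alone gave 217, 152, 290 and 325 genes for the 4 diets, a threshold of 1 gave 14 for HCD, 28 for HCD+Gl-2 and 1 for HCD+Sim, a repeated quantile normalization gave 3 for HCD+Sim, and a filter on dim genes, added after seeing the data, gave 10 for HCD and 2 for HCD+Sim. At an unadjusted p under 0.05 the 4 changes held 1158, 1199, 2374 and 1701 genes. On the gene strand alone, HNF4 letters stood in 0.901% of the large kidney windows, 0.17% of the large brain windows and 0.267% of all windows, and RE1 letters in 0%, 0.68% and 0.257%. Calls were also lost without a single other array for Etv1 (brain array A or B, to as little as -0.57), Slc18a2 (brain array B, -0.64), Hcn3 (kidney array C, -0.70) and P2rx7 (kidney array C or brain array A, -0.68).

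With the pool letter as a replicate block, 6619 genes were called (3474 higher in kidney and 3145 in brain, 1054 large), and 57 instead of 62 for the change with HCD+Gl-2. Deviations of kidney and brain arrays of the same letter correlated at -0.007, 0.0088 and -0.0233 in pools A, B and C. Those of different letters correlated at -0.0275 to 0.0328. Mice need not deviate in the same genes in both tissues, so these values cannot tell whether a letter stands for the same mice.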

Other observations

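Nuclear receptors, the hormone- and lipid-sensing factors, were split between the tissues. Of 47 receptor genes, 15 were higher in kidney, 10 in brain, or 9 without brain array C, and 22 were not called. The shares over all genes were 15.7% higher in kidney and 14.2% in brain. Besides Vdr, Nr1h4 and Ppara, the receptors higher in kidney included the oxysterol receptor Nr1h3 (2.07) and the common partner Rxra (1.73). In brain, Nr4a2, a factor of dopamine neurons, read 9.25, 9.26 and 9.49 against 6.04, 6.18 and 6.20 in kidney, a difference of -3.20. Rorb (-3.08), Nr4a1 (-2.36) and the thyroid hormone receptor Thra (-2.11) followed. The glucocorticoid receptor Nr3c1 was not called (0.27).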
